A study of Mus musculus with 165 samples.

Results

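The 9 genes described here encode proteins that fill, assemble or restrain the primary (azurophil) granules of myeloid cells, apart from *Ms4a3*. That gene encodes a membrane protein of progenitors and is counted with the 9. The 9 genes were taken by symbol from the 36255 genes of the expression table, *Mpo*, *Elane*, *Prtn3*, *Ctsg*, *Ctsc*, *Prss57*, *Ms4a3*, *Serpinb1a* and *Srgn*, and followed over all time points in both cytokines. All 9 were among the 17414 genes that passed the filter on low values, which kept genes that reached a normalized count of 5 in any library (at least 1). They were measured by RNA-Seq in PUER cells, a myeloid progenitor line from mice without PU.1 (*Spi1*-/-) in which PU.1 was put back as a fusion with the hormone-binding part of the estrogen receptor and is switched on by 4-hydroxy-tamoxifen (OHT).

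Every group carried the *Spi1* deletion and the fusion, and all came from this single line. Undifferentiated cells were kept in 5 ng/ml IL3 without OHT (3 libraries), and GCSF 0h cells had spent 48 h in 10 ng/mL GCSF in place of IL3 (3 libraries). The titles of these 3 libraries name OHT while their treatment label gives none, and the label was followed. GCSF-OHT cells stayed in GCSF with 100 nM OHT, the course labelled neutrophil, and IL3-OHT cells stayed in IL3 with 200 nM OHT, the course labelled macrophage. Both were sampled at 27 time points from 1h to 168h (78 and 81 libraries), so the dose of OHT changed with the cytokine and the effects of dose and cytokine cannot be told apart. Each of the 56 groups had 3 replicates, apart from 3 groups with 2 (96h, 112h and 152h of GCSF-OHT). The study's methods call the replicates biological. Each time point had a plate of its own, so plate and time point cannot be told apart and p-values measure the spread between wells of 1 plate. Trypsin was used to detach the cells at all time points after 24h. Its effect and that of time cannot be told apart between these and earlier time points.

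The libraries held 14600246 to 33147945 reads assigned to genes (median 21960878), and 3 reads, taken as the floor of detection for counting error only, correspond to a normalized count of 1.96 to 5.51. *Spi1* itself had mean counts from 5593 in IL3-OHT 168h to 12586 in GCSF 0h, which do not separate the fusion from other *Spi1* transcripts. Of 8 macrophage markers, *C1qb* was at 0 in each of the 8 groups at 0h, 12h, 80h and 168h, and *Csf1r* had a mean of 4.91 in IL3-OHT 168h, while *Adgre1* had 334. The 8 macrophage markers summed to 2099 to 2348 in undifferentiated cells, 3697 to 3976 in IL3-OHT 168h and 1734 to 2036 in GCSF-OHT 168h. All 8 neutrophil markers had more than 3 reads in these groups, although *Ly6g* stayed between 7.51 and 31.8 as group means. Their summed counts were 91523 to 100906 in undifferentiated cells, 134010 to 158431 in IL3-OHT 168h and 485852 to 515669 in GCSF-OHT 168h. In bulk samples, fewer cells of a type and less RNA per cell cannot be told apart.

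Primary granules are made in the promyelocyte stage, before the secondary and tertiary granules, and they are the first neutrophil granules to be packed with enzymes. Myeloperoxidase (*Mpo*) is a haem enzyme that turns hydrogen peroxide and chloride into hypochlorous acid. Neutrophil elastase (*Elane*), proteinase 3 (*Prtn3*), cathepsin G (*Ctsg*) and neutrophil serine protease 4 (*Prss57*) are serine proteases that are made as inactive precursors, and cathepsin C (*Ctsc*) trims the dipeptide that keeps them inactive. Serglycin (*Srgn*) is the proteoglycan whose negatively charged chains hold basic granule proteins, and *Serpinb1a* is a cytosolic inhibitor of elastase, proteinase 3 and cathepsin G. *Ms4a3* encodes a membrane protein of granulocyte-monocyte progenitors that is widely used to mark them.

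In GRCm38 coordinates, *Prss57* (ENSMUSG00000020323, chromosome 10 from 79781474 to 79790961, minus strand), *Prtn3* (ENSMUSG00000057729, 79874476 to 79883174, plus strand) and *Elane* (ENSMUSG00000020125, 79886247 to 79888215, plus strand) lie in 1 cluster, with 3072 bases between the last 2. *Srgn* (ENSMUSG00000020077) is on the same chromosome from 62493833 to 62527451. *Mpo* (ENSMUSG00000009350) spans chromosome 11 from 87793581 to 87804413, *Ctsg* (ENSMUSG00000040314) chromosome 14 from 56099881 to 56102574, *Ctsc* (ENSMUSG00000030560) chromosome 7 from 88278085 to 88310888, *Serpinb1a* (ENSMUSG00000044734) chromosome 13 from 32842092 to 32851185 and *Ms4a3* (ENSMUSG00000024681) chromosome 19 from 11629496 to 11640851. The gene models of *Prss57* and *Fstl3* overlap on opposite strands, as do those of *Prtn3* and *Plppr3*, and whether the counting used strand is not given in the sources used here. *Serpinb1a* has the related copies *Serpinb1b* and *Serpinb1c*, and the division of reads among them was not tested.

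Since OHT acts through PU.1, the promoters of 5 genes are printed with the letters GAGGAA, the core of many PU.1 and other ETS factor sites, in capitals (TTCCTC where they lie on the other strand). The sequences are from RefSeq (GRCm38.p6), 5′ to 3′ along each gene, and hold only bases upstream of every annotated exon of the gene's coding transcripts. The span of *Prtn3* given above starts earlier because it includes a non-coding transcript, whose intron holds the printed window. They lie at chr10:79886062-79886246 (*Elane*, plus strand), chr10:79879417-79879613 (*Prtn3*, plus strand), chr11:87793534-87793580 (*Mpo*, plus strand), chr14:56102575-56102824 (*Ctsg*, minus strand) and chr7:88277835-88278084 (*Ctsc*, plus strand).
Elane: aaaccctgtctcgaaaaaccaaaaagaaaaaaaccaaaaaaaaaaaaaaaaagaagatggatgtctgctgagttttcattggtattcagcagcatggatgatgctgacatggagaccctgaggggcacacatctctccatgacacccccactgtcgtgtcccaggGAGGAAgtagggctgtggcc
Prtn3: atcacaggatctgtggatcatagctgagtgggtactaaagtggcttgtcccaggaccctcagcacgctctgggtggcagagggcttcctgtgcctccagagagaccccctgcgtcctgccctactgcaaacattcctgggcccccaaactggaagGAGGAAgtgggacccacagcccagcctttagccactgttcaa
Mpo: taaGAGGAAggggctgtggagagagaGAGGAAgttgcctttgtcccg
Ctsg: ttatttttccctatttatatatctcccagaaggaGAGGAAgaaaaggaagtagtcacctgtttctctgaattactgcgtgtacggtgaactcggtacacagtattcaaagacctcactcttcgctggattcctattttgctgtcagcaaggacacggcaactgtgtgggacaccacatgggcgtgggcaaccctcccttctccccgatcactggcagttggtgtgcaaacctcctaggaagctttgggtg
Ctsc: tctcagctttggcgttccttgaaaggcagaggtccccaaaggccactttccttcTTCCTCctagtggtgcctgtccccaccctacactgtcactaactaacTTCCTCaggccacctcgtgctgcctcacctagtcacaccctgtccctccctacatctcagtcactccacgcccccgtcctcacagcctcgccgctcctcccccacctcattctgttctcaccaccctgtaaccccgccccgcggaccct
Of 7 members with an entry among 32851 RefSeq promoters, these 5 held GAGGAA on either strand within the 250 bases before the start, as did 23.3% of all promoters. The C/EBP letters TTGCNNAA were in 0 of the 7 and in 9.56% of all, the MYB letters AACTG in 4 (*Ctsg*, *Mpo*, *Prtn3* and *Srgn*) and 39.1%, and the RUNX letters TGTGGT in 2 (*Ctsg* and *Srgn*) and 14%. The 4 motifs do not contain one another, both strands were searched, and a match says only that the letters are present.

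*Elane*, *Ctsg* and *Prtn3* were already among the most abundant transcripts before OHT was added, at ranks 12, 57 and 61 of all genes without correction for length, while *Prss57* was at rank 12302. Per kilobase of the longest coding transcript, the mean normalized count in undifferentiated cells was highest for *Elane* (109887 ± 781, SD, n = 3 here and for the other members), followed by *Ctsg* (36746 ± 1244) and *Prtn3* (34949 ± 2218). These were followed by *Srgn* (10066 ± 296), *Serpinb1a* (1898 ± 21.6), *Mpo* (1373 ± 63.3) and *Ms4a3* (497 ± 37.5), and *Prss57* (4.68 ± 1.17) and *Ctsc* (2.87 ± 0.432) came last. The order of *Ctsg* and *Prtn3* lay within their SD. At GCSF-OHT 80h, *Elane* (161874 per kilobase), *Prtn3* (67561), *Ctsg* (37260) and *Mpo* (25775) were the highest, and *Mpo* had moved from the sixth place to the fourth. On the same ranking *Elane* was at rank 3 at GCSF-OHT 80h, and *Mpo* moved from rank 1157 to rank 17.

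Together the 9 genes took 0.886 ± 0.0131% (SD, n = 3) of the normalized counts in undifferentiated cells, *Elane* alone 0.465 ± 0.004%. The share was 1.43 ± 0.0851% (n = 3) at GCSF 0h, 1.62 ± 0.0489% (n = 3) at GCSF-OHT 80h and 0.644 ± 0.0168% (n = 3) at GCSF-OHT 168h. In IL3 it went down to 0.524 ± 0.0183% (n = 3) at 20h, back up to 0.834 ± 0.0445% (n = 3) at 88h and down to 0.334 ± 0.00235% (n = 3) at 168h. The sum is weighted to the abundant genes, *Elane* above all, and single members followed other courses.

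**Figure D1:**
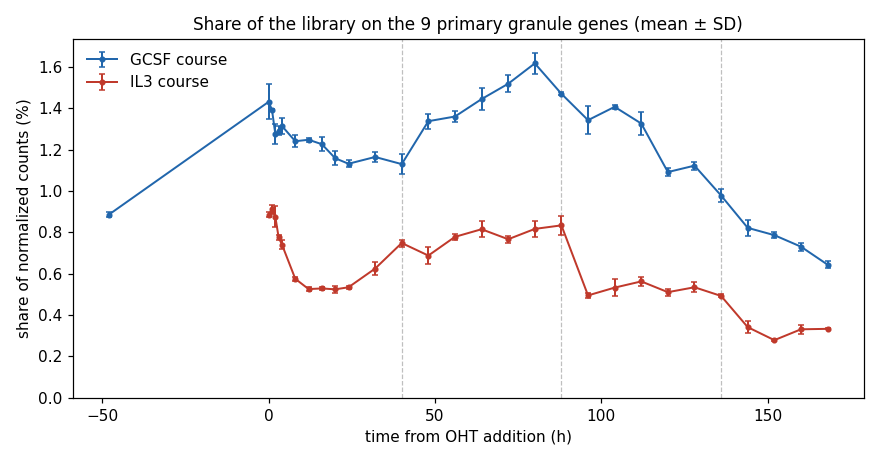
Share of each library's normalized counts on the 9 primary granule genes (%, mean ± SD) against time from OHT addition (h), in the GCSF course (blue, with undifferentiated cells at the left) and the IL3 course (red). Dashed lines mark the additions of fresh OHT at 40h, 88h and 136h, and the share stood at 1.62% in GCSF and 0.816% in IL3 at 80h.

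The first question was how the genes stood after 48 h of GCSF in place of IL3, before PU.1 was activated. In this step the effects of adding GCSF, of leaving out IL3 and of the plate cannot be told apart. Relative to undifferentiated cells, 5 of the 9 genes were upregulated after the pre-treatment, against 13% of all genes tested called higher and 20.7% called lower. A gene was called differentially expressed (DEG) by limma on log2(normalized count + 1) when its Benjamini-Hochberg adjusted p was under 0.05 and its log2 fold change was over 0.58 in size. *Mpo* was at 3891, 3858 and 3575 normalized counts in undifferentiated cells and at 7632, 9516 and 9507 at GCSF 0h, *Prtn3* at 37046, 37222 and 33199 against 70055, 75152 and 82669. In both genes the groups were well apart. The log2 fold change was 1.23 (SE 0.10, adjusted p = 1.55e-20) for *Mpo*, 1.08 (SE 0.07, adjusted p = 1.54e-26) for *Prtn3* and 0.70 (SE 0.04, adjusted p = 1.73e-29) for *Ctsg*. *Ms4a3* rose by 1.26 (SE 0.10, adjusted p = 7.17e-23), from 458, 524 and 523 to 1031, 1255 and 1339. *Prss57* had the largest difference, 2.82 (SE 0.45, adjusted p = 2.25e-08), from 17.01, 12.3 and 10.6 to 82.2, 101.8 and 113. *Elane* (0.10, adjusted p = 0.173), *Serpinb1a* (-0.07, adjusted p = 0.372) and *Ctsc* (0.39, adjusted p = 0.0321) did not pass both thresholds. *Srgn* was lower by less than the fold threshold, with a log2 fold change of -0.54 (adjusted p = 4.68e-17). The median over the members was 0.70, and over all genes tested -0.09. The summed level of 13 mast cell and basophil markers, 8 of them at 0 in each group, including *Prss34*, *Tpsb2* and *Fcer1a*, was 233 to 250 in undifferentiated cells and 523 to 647 at GCSF 0h, and its part in the result was not tested.

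Genes that serve the granule proteins moved unevenly in the same step. *Alas1*, the rate-limiting first enzyme of haem synthesis, was higher by 1.43 (SE 0.05, adjusted p = 9.04e-56). Of 12 tested transcription factors known to bind primary granule genes, 5 were higher and 2 lower, beside the 13% and 20.7% of all genes. The repressor *Gfi1* was higher by 3.14 (SE 0.06, adjusted p = 1.18e-77), *Myb* by 2.43 and *Cebpd* by 2.13, and *Klf5* was lower with -1.47. Of 10 tested protease inhibitors, 5 were lower, led by *Stfa2* with -3.07 (SE 0.12, adjusted p = 7.95e-46), beside 20.7% of all genes.

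Over each whole time course, all 9 genes changed (limma's moderated F, with the fold threshold passed at 1 time point or more against the start), as did 47.7% of all genes tested in GCSF and 69.7% in IL3. For *Mpo* the adjusted p was 2.36e-79 in GCSF and 1.38e-80 in IL3, and the highest over the members was 7.74e-08, for *Prss57* in GCSF. The shapes of the 9 courses differed and are given in the order of the proteins' roles.

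*Elane* was lower in IL3 at 20h after OHT than before it, and higher again by 88h. It stood at 108842, 107315 and 108229 normalized counts in undifferentiated cells and at 43687, 38919 and 43294 at IL3-OHT 20h, with no overlap. It then returned to 103002, 93572 and 104340 at 88h, and reached its lowest mean at 152h (24231 ± 713, SD, n = 3), 4.81-fold under the highest (116473 ± 1618 at 1h). No other IL3 time point overlapped that highest one. In GCSF, *Elane* stayed between 93315 and 122160 as time-point means over the first 24h, peaked at 80h (156651, 165235 and 155966), and ended lowest at 168h (70206, 67999 and 60187). The peak overlapped only with 88h, and 23 of the 27 pairs of GCSF time points that neighboured each other in the order of their means overlapped, against 19 of 27 in IL3.

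*Prtn3*, its neighbour on the chromosome, had its highest GCSF mean at 12h and not at 80h. That maximum (76835 ± 2063, SD, n = 3) overlapped GCSF 0h and 1h. The mean was then down at 52745 at 40h and back up at 69250 at 80h. *Prtn3* was lowest in GCSF at 168h (34398, 33787 and 33183). In IL3 it stood at 18525, 17582 and 19531 at 8h, was back at 45038, 41514 and 41831 at 80h and was at 23828, 24025 and 24299 at 168h. The 80h libraries were above all 3 undifferentiated ones.

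*Ctsg* declined in both conditions. In GCSF it went from 62624 ± 527 (SD, n = 3) at 1h to 17527 ± 298 (n = 3) at 160h, a 3.57-fold range. In IL3 it went from 37366 ± 1822 at 1h to 20706 ± 543 (n = 3) at 12h, was at 26462 ± 1014 (n = 3) at 88h, and reached 8744 ± 298 (n = 3) at 152h. The range was 4.27-fold.

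*Mpo* had the widest range of the abundant genes in each condition. Its rise came late in IL3, while in GCSF *Mpo* was already higher at 12h than at 0h (log2 fold change 0.71). In GCSF it stood at 13848, 15268 and 14287 at 12h, at 63565, 66655 and 82423 at 80h and at 16178, 15447 and 19429 at 168h. The 80h mean (70881 ± 10115, SD, n = 3) was 18.8-fold above undifferentiated cells and overlapped 72h, 88h, 96h and 104h, so the position of the maximum within this window was not resolved. In IL3 *Mpo* stood at 1892, 1985 and 2133 at 8h, below every undifferentiated library, and at 15926, 13257 and 18686 at 88h. It ended at 2727, 2635 and 2665 at 168h. At 152h it was at its lowest, 1312, 1497 and 1462, which overlapped no other IL3 time point.

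**Figure D2:**
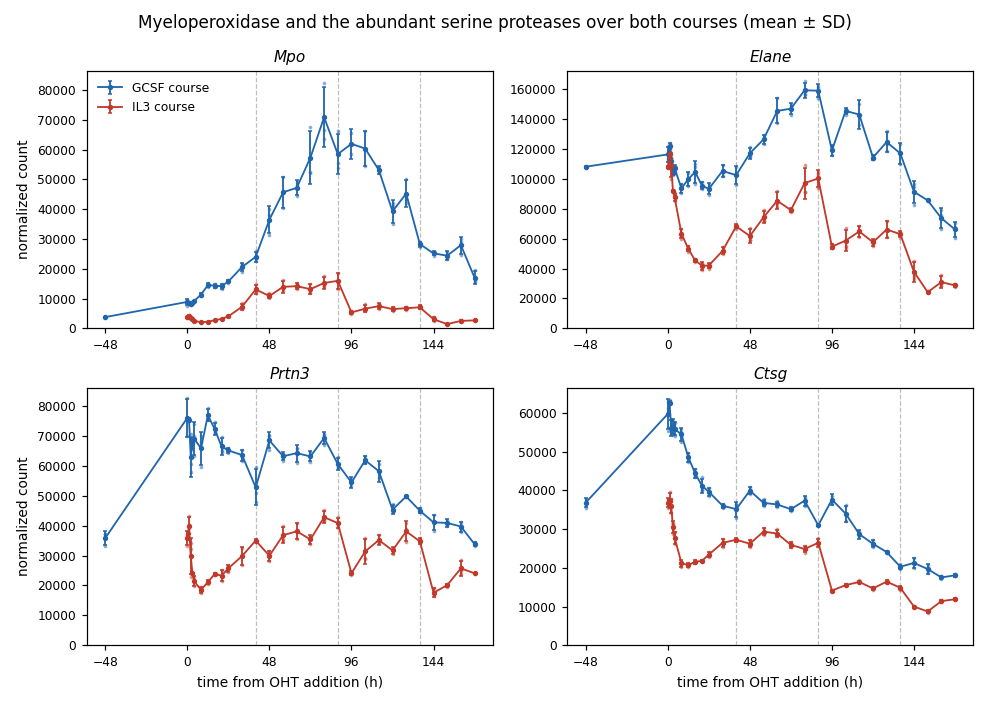
Normalized counts of *Mpo*, *Elane*, *Prtn3* and *Ctsg* (mean ± SD, small points for single libraries) against time from OHT addition (h), in the GCSF course (blue, with undifferentiated cells at the left) and the IL3 course (red), with fresh OHT at the dashed lines. *Mpo* climbed to 70881 in GCSF and 15956 in IL3, and *Ctsg* declined from 62624 to 17527 in GCSF.

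*Prss57*, the serine protease of lowest abundance, was close to the floor in IL3. In GCSF it went from 82.2, 101.8 and 113 at 0h to 211.5, 208.5 and 205.5 at 80h and then to 44.3, 40.4 and 47.9 at 168h. In IL3 the time-point means lay between 2.64 and 22.5, on 0 to 27 reads per library, and 12 of the 27 time points had a library at or under the floor of 3 reads. The order of the IL3 time points was therefore not resolved, with overlaps in 27 of 27 neighbouring pairs.

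*Ctsc*, which encodes the activator of the 4 proteases, was nearly silent before OHT and was called higher at 1h. The undifferentiated libraries had 7.85, 9.21 and 10.6 normalized counts and GCSF 0h 10.2, 14.2 and 13.0. At 1h the counts were 32.0, 28.1 and 28.8 in GCSF, clear of GCSF 0h, and 28.5, 13.8 and 13.7 in IL3, where replicate 1 stood above the other 2 and decided the call (log2 fold change 0.87, and 0.53 without it, under the fold threshold). *Ctsc* then reached 280 ± 6.03 (SD, n = 3) in IL3 and 147.1 ± 15.6 (n = 3) in GCSF at 8h. The IL3 maximum was at 24h (445, 411 and 310, overlapping 5 other time points), the GCSF maximum at 40h (491, 471 and 516, overlapping 32h only). These means were 42.1-fold and 39.5-fold above the starts. By 168h the counts had declined to 98.6, 113 and 98.97 in IL3 and 85.6, 91.3 and 74.4 in GCSF, still above every library without OHT.

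*Ms4a3* was higher after OHT in both conditions. At 4h it was at 1883 ± 51.2 (SD, n = 3) in GCSF and at 560 ± 21.5 (n = 3) in IL3, and the starts were 1209 ± 159.2 (n = 3) and 502 ± 37.9 (n = 3). Both courses peaked at 48h, with 4879, 4039 and 5246 in GCSF and 4722, 4179 and 4204 in IL3, so that the conditions overlapped there. The GCSF maximum overlapped 5 other time points between 24h and 72h, so its position was not resolved. At 168h the libraries had returned to 904, 867 and 1160 in GCSF and 615, 610 and 640 in IL3.

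*Serpinb1a*, the inhibitor, was reduced early and stayed low. From 3607, 3627 and 3687 in undifferentiated cells it went to 2200, 2183 and 2323 at IL3-OHT 12h and 2001, 2002 and 1962 at 168h. In GCSF it went from 3438, 3297 and 3653 at 0h to 1975, 2035 and 2181 at 4h, and to 1683, 1776 and 1673 at 168h. Its paralogs *Serpinb1b* and *Serpinb1c* had group means of at most 46.6 and 0.294 at the start, 12h, 80h and 168h. *Cst7*, the inhibitor of cathepsin C, was at 3622 ± 182 (SD, n = 3) in undifferentiated cells, 1605 ± 38.8 in IL3-OHT 168h and 1178 ± 90.97 in GCSF-OHT 168h (n = 3 each).

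*Srgn* separated the conditions in the direction opposite to the enzymes. In GCSF it went down from 15744 ± 756 (SD, n = 3) at 1h to 3466 ± 36.03 (n = 3) at 160h. In IL3 it peaked at 2h with 23728, 21859 and 21760, above all undifferentiated libraries (16988, 17203 and 17960), and then remained between 9588 and 13693 as time-point means from 12h on. At 168h it was at 9314, 9669 and 9779 in IL3 and 3444, 3710 and 3561 in GCSF. Of 16 tested genes for the synthesis of chondroitin sulphate chains, which serglycin carries, 1 was higher and 2 lower in GCSF than in IL3 over the shared times, near or below the 9.34% and 15.1% of all genes. *Csgalnact1* was lower with -1.50 and *Chpf* with -1.02, and *Csgalnact2* was higher by 0.62.

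**Figure D3:**
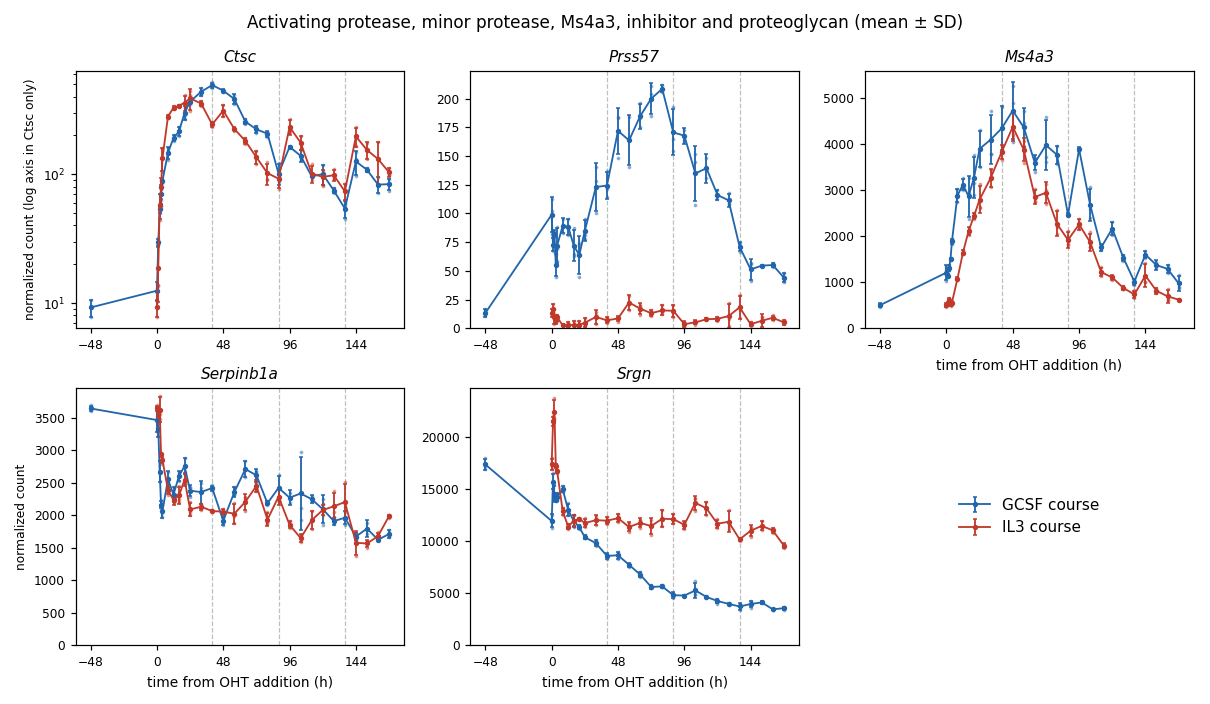
Normalized counts of *Ctsc* (log axis), *Prss57*, *Ms4a3*, *Serpinb1a* and *Srgn* (linear axes; mean ± SD, small points for single libraries) against time from OHT addition (h), in the GCSF course (blue) and the IL3 course (red), with fresh OHT at the dashed lines. *Ctsc* rose to 492 in GCSF and 388 in IL3 from starts of 12.5 and 9.23, and *Srgn* ended at 3572 in GCSF and 9588 in IL3.

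The courses were compared in 3 phases. From 0h to 12h in IL3, all 9 genes were called: *Ctsc* and *Ms4a3* rose and 7 fell, against 11.2% of all genes tested called higher and 17.5% lower. *Ctsc* rose by 5.02 on the log2 scale (SE 0.16, adjusted p = 2.26e-54) and *Ms4a3* by 1.71 (SE 0.10, adjusted p = 2.26e-32). The genes that fell were *Prss57* with -1.93 (SE 0.45, adjusted p = 1.03e-04), *Elane* with -1.02, *Ctsg* with -0.83, *Mpo* and *Prtn3* with -0.76, *Serpinb1a* with -0.70 and *Srgn* with -0.61, and the last of these calls was lost with edgeR (-0.57). *Prss57* had 1 to 6 reads per library at IL3-OHT 12h. In GCSF 3 genes were called over the same hours, where 7.56% of all genes were called higher and 3.88% lower. *Ctsc* rose by 3.84 (SE 0.16, adjusted p = 5.13e-43), *Ms4a3* by 1.37 (SE 0.10, adjusted p = 9.94e-25) and *Mpo* by 0.71 (SE 0.10, adjusted p = 4.98e-09). *Serpinb1a* was just short of the fold threshold (-0.58, adjusted p = 1.06e-12) and passed it under upper-quartile scaling and without replicate 2.

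From 12h to 80h, *Mpo*, *Elane* and *Prss57* rose in both conditions. In IL3, 4 genes were called higher and 1 lower (all genes: 12.7% higher and 9.92% lower). *Mpo* rose by 2.76 (SE 0.10, adjusted p = 1.12e-47), *Prss57* by 2.14 (SE 0.45, adjusted p = 1.98e-05), *Prtn3* by 1.02 and *Elane* by 0.86, while *Ctsc* came down from its early maximum by -1.69 (SE 0.16, adjusted p = 5.18e-17). In GCSF, 3 were higher and 1 lower (all genes: 3.6% higher and 4.21% lower). *Mpo* rose by 2.28 (SE 0.10, adjusted p = 1.6e-39), *Elane* by 0.67 (SE 0.07, adjusted p = 7.46e-16), and *Srgn* fell with -1.20 (SE 0.05, adjusted p = 9.46e-41). *Prss57* rose by 1.23 (adjusted p = 0.0303), a call that was lost without any 1 of the replicates (adjusted p from 0.072 to 0.129) and with a pseudocount of 0.5 (adjusted p = 0.0633).

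From 80h to 168h the granule genes declined in both conditions. In GCSF 8 of the 9 fell, all but *Serpinb1a* (-0.35), against 6.61% of all genes called lower and 5.09% higher. The log2 fold change was -2.22 (SE 0.45, adjusted p = 1.66e-05) for *Prss57*, -2.06 (SE 0.10, adjusted p = 1e-35) for *Mpo*, -1.95 for *Ms4a3*, -1.30 for *Ctsc*, -1.27 for *Elane*, -1.05 for *Ctsg*, -1.03 for *Prtn3* and -0.67 for *Srgn*. In IL3 6 fell (5.25% of all genes called lower, 3.49% higher). They were *Mpo* with -2.5 (SE 0.10, adjusted p = 8.79e-43), *Ms4a3* with -1.86, *Elane* with -1.75, *Prss57* with -1.44, *Ctsg* with -1.06 and *Prtn3* with -0.83. The call of *Prss57* was lost without replicate 1 (-1.28, adjusted p = 0.0813). The median over the 9 genes was -1.27 in GCSF and -1.06 in IL3, beside 0 over all genes tested in each.

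**Figure D4:**
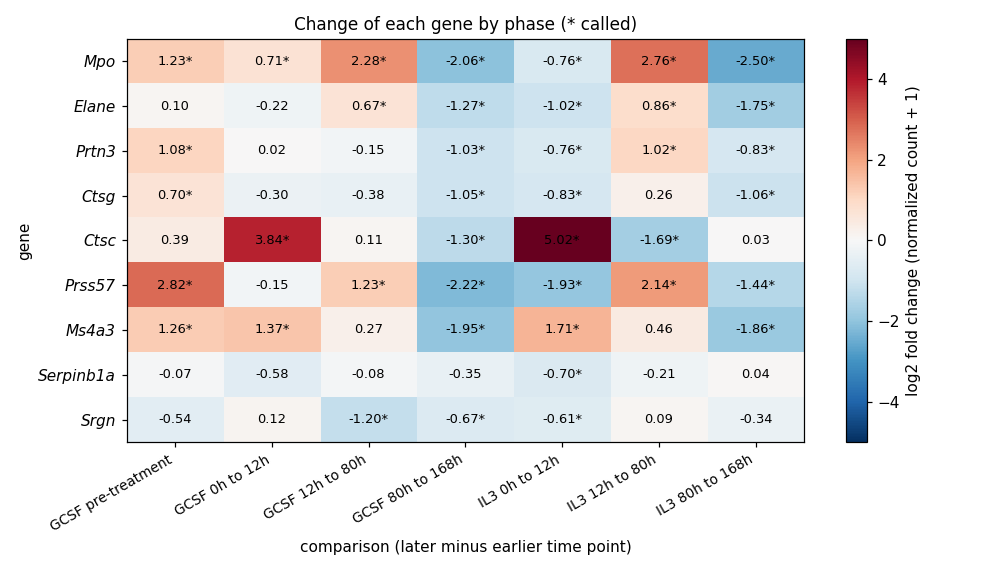
Log2 fold change of the normalized count + 1 for each primary granule gene (rows) in the GCSF pre-treatment and in 3 phases of each course (columns, later minus earlier time point), with called differences starred. *Ctsc* had the largest rise of the map, 5.02 in IL3 from 0h to 12h, and the last GCSF phase held 8 stars.

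At the end of the courses, relative to undifferentiated cells, the conditions left the granule genes at different levels. These comparisons share the undifferentiated libraries. In IL3-OHT 168h, *Ctsc* was higher by 3.36 (SE 0.16, adjusted p = 3.66e-38), and *Elane* (-1.91), *Ctsg* (-1.63), *Prss57* (-1.23), *Serpinb1a* (-0.87) and *Srgn* (-0.86) were lower, 1 and 5 of 9 (all genes: 10.2% higher, 15.2% lower). Without replicate 1, the value of *Prss57* was -0.85 (adjusted p = 0.226). In GCSF-OHT 168h, 4 were higher, *Ctsc* by 3.05, *Mpo* by 2.17 (SE 0.10, adjusted p = 3.53e-39), *Prss57* by 1.68 and *Ms4a3* by 0.95, and 4 were lower, *Srgn* (-2.28), *Serpinb1a* (-1.09), *Ctsg* (-1.03) and *Elane* (-0.71), where 15.5% of all genes were called higher and 23.6% lower. Relative to GCSF 0h, 2 were higher at GCSF-OHT 168h, *Ctsc* by 2.66 and *Mpo* by 0.94, and 6 were lower (all genes: 12.1% higher, 12.6% lower), *Srgn* (-1.74), *Ctsg* (-1.72), *Prtn3* (-1.17), *Prss57* (-1.14), *Serpinb1a* (-1.02) and *Elane* (-0.82). The call of *Prss57* (adjusted p = 0.0261) was lost without any 1 of the replicates, with adjusted p from 0.0552 to 0.145.

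GCSF and IL3 were then compared directly over the 25 time points that both courses share after leaving out 96h and 144h. *Mpo*, *Elane*, *Prtn3*, *Ctsg*, *Prss57* and *Ms4a3* were higher in GCSF and *Srgn* was lower, 6 and 1 of 9, against 9.34% and 15.1% of all genes. The largest differences were 3.56 (SE 0.09, adjusted p = 7.32e-67) for *Prss57* and 2.19 (SE 0.02, adjusted p = 4.11e-112) for *Mpo*, followed by *Prtn3* (1.00), *Elane* (0.86), *Ctsg* (0.72) and *Ms4a3* (0.69), and *Srgn* had -0.78 (SE 0.01, adjusted p = 1.51e-95). *Ctsc* (-0.01, adjusted p = 0.690) and *Serpinb1a* (0.03, adjusted p = 0.0743) did not pass both thresholds. *Ctsc* was above IL3 in every library at 7 times, below at 8 and overlapping at 10, and *Serpinb1a* above at 9, below at 7 and overlapping at 9. For *Mpo*, *Prtn3*, *Ctsg* and *Prss57* all GCSF libraries lay above all IL3 libraries at 25 of 25 times, for *Elane* at 24 and for *Ms4a3* at 22. *Srgn* was below at 22 times and above at 2.

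The sum of 13 mast cell and basophil markers was also higher in GCSF, at 751 to 914 in GCSF-OHT 80h and 143 to 161 in IL3-OHT 80h. It was led by *Hdc* (663 and 62.5 as means), 8 of the 13 genes in GCSF-OHT 80h and 9 in IL3-OHT 80h were at 0, among them the proteases *Prss34*, *Cpa3* and *Tpsb2*, and its part in the differences was not tested. The sum of 8 neutrophil markers was 372047 to 423051 and 173652 to 180939 in the same groups.

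At single time points the order of the conditions was kept for most members, and that of *Ctsc* turned with calls on both sides. *Srgn* also changed sign, from 0.19 at 12h (adjusted p = 0.00175), under the fold threshold. *Serpinb1a* did so from 0.18 at 80h to -0.22 at 168h, both under that threshold. At 12h, 6 were higher in GCSF and 1 lower (all genes: 8.92% and 8.37%), with *Prss57* higher by 4.59 (SE 0.45, adjusted p = 1.1e-16), *Mpo* by 2.69, *Prtn3* by 1.86, *Ctsg* by 1.23, *Ms4a3* by 0.92 and *Elane* by 0.91, and *Ctsc* lower with -0.78 (SE 0.16, adjusted p = 2.27e-05). At 80h, 7 were higher and 1 lower (all genes: 10.8% and 14%). *Ctsc* was now higher in GCSF by 1.03 (SE 0.16, adjusted p = 3.22e-08), *Prss57* by 3.69, *Mpo* by 2.22, *Ms4a3* by 0.74, *Elane* by 0.72, *Prtn3* by 0.69 and *Ctsg* by 0.59, and *Srgn* was lower with -1.10. The call of *Ctsg* at 80h was lost without replicate 1 (0.55) and under upper-quartile scaling (0.57). At 168h, 5 were higher and 1 lower (all genes: 12% and 16%), with *Prss57* at 2.91, *Mpo* at 2.66, *Elane* at 1.2, *Ms4a3* at 0.64, *Ctsg* at 0.60 and *Srgn* at -1.42. *Ms4a3* at 168h fell below the fold threshold without replicate 3 (0.53).

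Because the GCSF cells started from another level, the effect of OHT was also compared between conditions as an interaction, each course relative to its own 0h. At 12h the effect was more positive in GCSF for 5 genes and more negative for 1 (all genes: 15.3% and 9.33%). The difference was 1.78 (SE 0.63, adjusted p = 0.0156) for *Prss57*, 1.47 (SE 0.15, adjusted p = 7.74e-16) for *Mpo*, 0.80 for *Elane*, 0.78 for *Prtn3*, 0.73 for *Srgn* and -1.17 (SE 0.23, adjusted p = 7.6e-06) for *Ctsc*. At 168h it was more positive for 2, *Mpo* with 1.43 (SE 0.15, adjusted p = 2.08e-15) and *Elane* with 1.10, and more negative for 4 (all genes: 14.5% and 11.3%), *Srgn* (-0.88), *Ctsc* (-0.70, adjusted p = 0.00890), *Ms4a3* (-0.62) and *Prtn3* (-0.59). Several of these calls were fragile. *Prss57* at 12h was lost without replicate 1 or 2 (adjusted p = 0.0588 and 0.226), and *Ctsc* at 168h without replicate 2 (adjusted p = 0.132), with edgeR (adjusted p = 0.121), with DESeq2 (adjusted p = 0.131) and in a fit of the 4 groups alone (adjusted p = 0.0550). *Ms4a3* without replicate 2 (-0.56) and *Prtn3* without replicate 3 (-0.46) fell short of the fold threshold.

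Fresh OHT was added with a change of part of the medium at 40h, 88h and 136h, and the time points 8 h later were set against the means of the time points around them. In IL3 at 96h, *Ctsc* was higher than its neighbours and *Mpo* and *Prss57* were lower, 1 and 2 of 9, where 9.36% of all genes were called higher and 8.17% lower. *Mpo* was at 5445, 5827 and 4785 at 96h, against 15926, 13257 and 18686 at 88h and 8051, 5738 and 6006 at 104h, a difference of -0.93 (SE 0.09, adjusted p = 4.61e-16). The 96h libraries overlapped those of 104h and lay below those of 88h. *Ctsc* was at 211.6, 219 and 268 at 96h, above all libraries of 88h (76.7, 99.1 and 101.4) and 104h (154.8, 199 and 173.8), with 0.86 (SE 0.14, adjusted p = 7.41e-08). *Prss57* had -1.20 (adjusted p = 0.00723) on 1 to 5 reads at 96h, which was lost without replicate 2 (-0.55, adjusted p = 0.423) and in a fit of these groups alone (adjusted p = 0.0559). *Prtn3* (-0.57), *Ctsg* (-0.52) and *Elane* (-0.49) were lower with adjusted p from 5.32e-25 to 9.11e-12 but by less than the fold threshold, which *Prtn3* passed without replicate 2 (-0.61).

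At IL3-OHT 144h, *Ctsc* was again higher, by 0.87 (SE 0.14, adjusted p = 6.19e-08), and *Prtn3* (-0.59, adjusted p = 2.34e-14) and *Prss57* (-1.09, adjusted p = 0.0165) were lower (all genes: 8.59% higher and 6.76% lower). The call of *Prtn3* fell below the fold threshold without replicate 1 or 2 (-0.54 and -0.58) and under upper-quartile scaling (-0.56), and that of *Prss57* was lost without replicate 1 (adjusted p = 0.160), without replicate 2 (adjusted p = 0.283) and in a fit of these groups alone (adjusted p = 0.356). *Mpo* continued to fall through this window, from 7797, 6694 and 6697 at 136h to 2557, 2817 and 3819 at 144h and 1312, 1497 and 1462 at 152h, so that 144h lay between its neighbours (-0.07, adjusted p = 0.602). *Ms4a3* had 0.55 (adjusted p = 4.93e-08), under the fold threshold, and passed it without replicate 1 or 2 (0.67 and 0.66).

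In GCSF, 1 of the 9 genes was called at 96h and 1 at 144h, and the difference between the conditions was not tested. *Ms4a3* was higher at 96h by 0.60 (SE 0.10, adjusted p = 9.19e-07), at 3851 and 3921 against 2494, 2468 and 2425 at 88h and 2584, 2387 and 3062 at 104h (all genes: 1.12% higher, 3.53% lower). *Ctsc* was higher at 144h by 0.69 (SE 0.15, adjusted p = 2.74e-04), where 0.774% of all genes were called higher and 1.07% lower. The first call was lost without replicate 2 (0.55), which leaves 1 library at 96h, and the second without replicate 3 (0.50, adjusted p = 0.0507) and in a fit of these groups alone (adjusted p = 0.0914). The time points at 48h, compared after the values had been seen, gave 0 calls of members by limma, edgeR and DESeq2 in either condition. Of all genes, limma called 0.757% higher and 0.843% lower in IL3, and 0.161% and 0.189% in GCSF. At an unadjusted p under 0.05, without a fold threshold, 6 members differed in IL3 by each tool, and in GCSF 3 by limma and 4 by the other tools. The share of all genes at that unadjusted p was not counted, so these member counts have no background beside them. *Ctsc* at IL3-OHT 48h was at 304, 346 and 285, above every library of 40h (256, 233 and 242) and 56h (230, 218 and 226), with a difference of 0.41 (adjusted p = 0.0365).

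**Figure D5:**
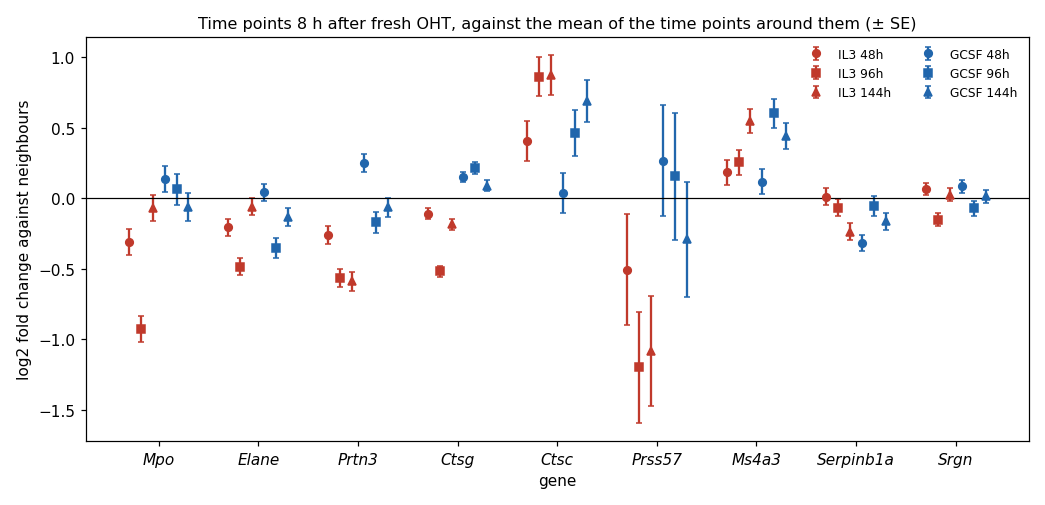
Log2 fold change (± SE, limma) of each gene at the time points 8 h after fresh OHT against the mean of the 2 time points around them, in IL3 (red) and GCSF (blue), with circles for 48h, squares for 96h and triangles for 144h. *Ctsc* and *Ms4a3* lay above 0 in all 6 windows, though *Ctsc* in GCSF at 48h was at 0.04 (SE 0.14). *Mpo* in IL3 at 96h was at -0.93.

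Between consecutive time points, with the pre-treatment counted as the first GCSF step, the granule genes were called in 20 of 252 gene-by-step tests in GCSF, 14 higher and 6 lower (all genes: 1.37% and 1.58%), and in 24 of 225 in IL3, 12 higher and 12 lower (all genes: 1.76% and 1.88%). *Ctsc* accounted for 6 of the calls in GCSF and 7 in IL3, and its first was from 0h to 1h in both, 1.19 (adjusted p = 1.13e-09) in GCSF and 0.87 (adjusted p = 1.21e-05) in IL3, the latter at 0.53 without replicate 1 of 1h. *Ms4a3* was first called after OHT between 4h and 8h, with 0.61 in GCSF and 0.94 in IL3. *Mpo* in IL3 rose in the step from 24h to 32h (0.84) and in the next, to 40h (0.85). Detachment with trypsin began with the 32h samples, and its part in the first of these steps was not tested. In IL3 the steps across the time points left out cover 16 h. At 104h against 88h *Mpo* changed by -1.28, *Elane* by -0.78 and *Ctsg* by -0.77, and at 152h against 136h *Mpo* by -2.31 (SE 0.10, adjusted p = 4.18e-40), *Elane* by -1.38, *Prtn3* by -0.79 and *Ctsg* by -0.76, while *Ctsc* was higher by 0.93 and 1.06. *Prss57* had -1.39 and -1.83 there and -1.53 from 4h to 8h, on few reads, and *Ctsc* in GCSF had -1.04 from 80h to 88h. *Serpinb1a* and *Srgn* passed the threshold at none of these steps.

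The other contents of the azurophil granule were counted in the same phases. Of 19 tested genes for lysosomal hydrolases and other azurophil proteins, 4 were higher and 1 lower from 80h to 168h in GCSF (all genes: 5.09% and 6.61%), when 8 of the 9 primary granule genes fell. In IL3 1 of the 19 was called, higher (all genes: 3.49%), when 6 of the 9 fell, and the difference between the lists was not tested. In GCSF from 80h to 168h, *Ctsd* rose by 1.16 (SE 0.06, adjusted p = 5.3e-34), *Cd68* by 1.15 and *Lyz2*, lysozyme, by 0.96. *Lyz2* was higher in every phase, by 2.55 and 0.85 in the first and second phase of GCSF and by 3.41, 1.75 and 0.66 in the 3 phases of IL3. Of 14 secondary and tertiary granule genes, 9 rose and 1 fell from 12h to 80h in GCSF (all genes: 3.6% and 4.21%), with *Ltf* at 4.01 (SE 0.30, adjusted p = 1.1e-22), *Mmp9* at 3.70 and *Mmp8* at 3.54, and 10 rose and 1 fell in IL3 (all genes: 12.7% and 9.92%). From 80h to 168h in GCSF 3 rose and 3 fell, *Mmp9* by 1.78 and *Lcn2* by 0.87 on one side and *Fcnb* (-1.85) and *Ltf* (-1.38) on the other.

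Of the 12 transcription factors, 3 fell from 80h to 168h in GCSF (all genes: 6.61%). *Cebpe* had -1.20 (SE 0.10, adjusted p = 4.87e-20), *Gfi1* -0.92 and *Myb* -0.72, and in IL3 *Myb* (-0.74) was called. *Alas1* was the 1 haem gene of 8 called in that phase, with -1.05 (SE 0.05, adjusted p = 1.21e-41) in GCSF and -0.87 in IL3, after it had risen by 1.27 from 12h to 80h in IL3. Over the shared times 5 of the 12 factors were higher in GCSF (all genes: 9.34%), with *Gfi1* at 1.09, *Myb* at 1.08, *Cebpe* at 0.75 and *Cebpa* at 0.71.

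Of 17 neighbours of the chromosome 10 cluster, from *Cdc34* to *Arid3a*, 3 were higher and 2 lower in GCSF than in IL3 over the shared times, beside 9.34% and 15.1% of all genes. *Cfd*, complement factor D, which lies directly beyond *Elane*, was higher by 1.16 (SE 0.08, adjusted p = 1.86e-27), *Palm* by 0.92 and *Plppr3* by 0.61. *Bsg* (-1.36) and *Fstl3* (-0.87) were lower, *Ptbp1* had 0.31 and *Misp* -0.16 (adjusted p = 0.279). *Fstl3* overlaps *Prss57* and had the opposite sign in this comparison. *Plppr3* overlaps *Prtn3*, was at 18543 in GCSF 0h and 9986 in undifferentiated cells as means, and its part in the counts of *Prtn3* was not tested.

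How far the 9 genes followed each other was described by Pearson's r of their time-point means on the log2 scale, over 28 GCSF and 26 IL3 points, which share libraries between genes and are not independent of one another in time. *Prtn3* and *Ctsg* had an r of 0.90 in GCSF and 0.34 in IL3, and *Mpo* and *Prtn3* of -0.26 and 0.84. *Mpo* and *Prss57* had 0.70 and 0.66, *Ctsg* and *Srgn* 0.92 and 0.63, and *Elane* and *Ctsc* 0.03 and -0.52. Over all 54 points and 9928 genes whose mean normalized count was 100 or more, the genes most like *Mpo* were *Hip1r* (0.93), *Neurl1b* and *Smcr8* (0.92 each). *Elane* was nearest to *Susd1* (0.90), *Ces2g* and *Tnk2* (0.88 each), and *Prtn3* to *Adgrg3* (0.95), *H2az2* and *Cited4* (0.94 each). *Ctsg* was nearest to *Clec11a* (0.96), *Mmrn1* (0.95) and *Cnpy1* (0.94), and *Prss57* to *Cldn15* (0.96), *Prx* and *Cdkn2c* (0.95 each). *Srgn* was nearest to *Ctla2a* (0.97), *Serpinf1* (0.96) and *Ppic* (0.95). Values were lower for *Ctsc*, with *Anxa6* (0.85), *Zbtb18* (0.85) and *Gpx1* (0.83), and for *Serpinb1a*, with *Slc30a1* (0.85), *Gmps* and *Slc39a8* (0.81 each). *Ms4a3* was nearest to *Bub1* (0.93), a kinase of the mitotic checkpoint, *Anln* (0.89) and *Ahsa2* (0.88). None of the 3 nearest genes of any member, out of these 9928, was itself a member. Between members, r over the same 54 points ran from -0.73 (*Mpo* and *Srgn*) to 0.90 (*Prtn3* and *Prss57*).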

How the data were processed

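RNA-Seq was analysed in 165 PUER libraries, polyadenylated RNA prepared with a NEB Ultra II kit. The signal values are normalized gene counts that the authors deposited: they aligned reads to GRCm38 transcripts with Salmon, gave the counts by gene, in a way not given in the sources used here, and divided each library by its DESeq2 size factor (neither version is given in the sources used here). Divided by what 1 read is worth in the library (0.652 to 1.84), 100% of values came out whole within a relative tolerance of 0.01, so reads could be recovered. The authors left IL3-OHT 96h and 144h out of their analysis. Here both entered only the comparisons of a time point with its neighbours.

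Log2(normalized count + 1) was fitted over 54 groups (17414 genes) with limma 3.58.1 (lmFit and eBayes with a trend, R 4.3.3), and the neighbour comparisons over all 56 groups (17439 genes). A contrast was adjusted by Benjamini-Hochberg over all its genes, two-sided. Genes were called at an adjusted p under 0.05 and a log2 fold change over 0.58 in size. A fold change on this scale understates the change of low genes. Levels, tables and figures were made with Python 3.11.15, numpy 2.4.6, pandas 2.3.3 and matplotlib 3.10.9. Scripts were tested on simulated data, where limma called more unchanged genes than edgeR did.

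All 9 members were named. From every other list at most 4 called genes with the largest fold change were named per comparison (a few are not reported here), besides *Cst7* and the genes between *Prss57* and *Cfd*. For likeness, the 3 nearest genes of each member were named by Pearson's r. The members, lists and comparisons were chosen with earlier results of these data known.

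Alternatives were pseudocounts of 0.5 and 5, no filter, a mean of at least 10, upper-quartile scaling, a replicate block, each replicate left out, 120h left out (its libraries carry another name prefix), a fit of only the groups compared, and edgeR 4.0.16 and DESeq2 1.42.0 on the recovered reads.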

Additional observations from a re-analysis of the deposited data

Results flagged for a closer look

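The effect of OHT, each course relative to its own start, differed between GCSF and IL3 for several primary granule genes when the difference itself was tested as an interaction in limma (3 libraries per group). At 12h, *Mpo* had a log2 fold change of 0.71 in GCSF and -0.76 in IL3, a difference of 1.47 (SE 0.15, adjusted p = 7.74e-16). *Elane* had -0.22 and -1.02 (difference 0.80), *Prtn3* 0.02 and -0.76 (difference 0.78) and *Srgn* 0.12 and -0.61 (difference 0.73), so that these 3 were lower past the threshold in IL3 and stayed within it in GCSF. With edgeR, *Srgn* in IL3 was short of the threshold (-0.57). *Ctsc*, which encodes the activator of the proteases, rose in both, by 3.84 in GCSF and 5.02 in IL3 (difference -1.17, SE 0.23, adjusted p = 7.6e-06). *Prss57* had -0.15 and -1.93 (difference 1.78, SE 0.63, adjusted p = 0.0156), a call lost without replicate 1 (adjusted p = 0.0588) or replicate 2 (adjusted p = 0.226).

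At 168h, *Mpo* was above its start in GCSF (0.94) and had -0.50 in IL3, a difference of 1.43 (SE 0.15, adjusted p = 2.08e-15). *Elane* was below its start in both, with -0.82 in GCSF and -1.91 in IL3 (difference 1.10, SE 0.09, adjusted p = 1.03e-19). *Srgn* was also below it in both, and here GCSF had the greater reduction, -1.74 against -0.86 (difference -0.88, SE 0.07, adjusted p = 4.53e-20). *Prtn3* had -1.17 and -0.57 (difference -0.59), *Ms4a3* -0.31 and 0.31 (difference -0.62) and *Ctsc* 2.66 and 3.36 (difference -0.70, adjusted p = 0.00890). Left out 1 at a time, replicate 3 took *Prtn3* (-0.46) and replicate 2 took *Ms4a3* (-0.56) under the fold threshold, and *Ctsc* lost its call without replicate 2 (adjusted p = 0.132), with edgeR (0.121) and DESeq2 (0.131) and in a fit of the 4 groups alone (0.0550). GCSF 0h libraries differed from undifferentiated ones in 5 of the 9 genes before OHT, and the dose of OHT differed between the courses.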

How the results depend on the processing

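Of 2574 values of single members under an alternative, 2514 kept their direction and their side of the thresholds, 33 lost and 7 gained a call, and 20 changed sign. Of the sign changes, 18 were values without a call, at most 0.15 in size in the original fit. Under an alternative, the farthest of these was *Prss57* in the interaction at 168h, which went from 0.09 to -0.41 without replicate 1. The other 2 were *Prss57* over time in GCSF, whose value is that of the time point farthest from GCSF 0h: it was -1.14 (168h), and ranged from -1.26 to 1.19 with 1 replicate left out (1.11 without replicate 2, 1.19 without replicate 3), where another time point was farthest. At GCSF 144h the 1 member called against its neighbours became 0 in a fit of only these groups, with a range of 0 to 1 with 1 replicate left out (0 without replicate 3). At GCSF 96h that range was also 0 to 1 (0 without replicate 2). The cause was not tested. Over all genes, the 811 calls at GCSF 96h went to 0.523 times that number without replicate 2 and 0.636 times in the fit of only its groups. The 322 at GCSF 144h went to 0.534 times without replicate 1 and 0.419 times in that fit, the 279 at IL3 48h to 0.398 times without replicate 2, and the 61 at GCSF 48h to 0.377 and 0.639 times without replicates 1 and 3 and to 1.52 times with edgeR. The share of calls that were higher moved from 47.3% to 58.5% at IL3 48h and from 45.9% to 55.9% at GCSF 48h with edgeR. Over the shared times, 4262 genes were called by limma, 4275 by edgeR and 4960 by DESeq2. The median of all genes moved by over 0.1 only for edgeR's change over time, by -0.16 in GCSF and -0.13 in IL3.

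In the replicate check, correlations of same-numbered samples lay between -0.134 and 0.139, with 2 of 39 pairs over 0.1, and the numbers were not taken to pair samples. With the replicate block the count of members called was equal in 26 of 26 comparisons, and calls over all genes were 0.993 to 1.03 times those without it. Leaving out 120h changed no member's call in the results it could be run on. In the comparisons other than the consecutive steps, *Prss57* lost none of its calls with edgeR. Depth limits *Prss57* in IL3 most, on 0 to 27 reads per library. With 2 or 3 libraries per group from 1 plate, differences between plates are not measured.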
